A study of Mus musculus with 10 samples.

Results

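Regions of open chromatin were described in 2 stretches of the mouse genome that hold clusters of zinc finger genes, on chromosome 13 from 61500000 to 68000000 (6.5 Mb) and on chromosome 4 from 143000000 to 147500000 (4.5 Mb), in coordinates of build mm9. A site was taken as a member where its midpoint lay in either stretch. This gave 4567 of the 1816946 sites of 4 lists, 1 list per cell type. Of these, 2838 lay in the chromosome 13 region (942 of embryonic stem cells, 634 of epiblast stem cells, 715 of neural stem cells and 547 of embryonic fibroblasts) and 1729 in the chromosome 4 region (649, 377, 370 and 333 in the same order). Both regions had been picked from the same lists, because windows in them held many sites of embryonic stem cells and no site of epiblast stem cells, so the numbers of sites in these cell types are a description and support nothing.

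The sites come from FAIRE-seq, in which crosslinked chromatin is sheared, extracted with phenol and chloroform, and the nucleosome-poor DNA left in the aqueous phase is sequenced. Embryonic stem cells (ESC) were of the E14 line (ES-E14Tg2a), grown without serum in 1 uM of a MEK inhibitor, 3 uM of a GSK3 inhibitor and LIF, the condition called the ground state. Epiblast stem cells (EpiSC) were of the E3 line, expanded on a layer of fibroblast feeders with 5 ng/ml FGF2 and moved to feeder-free plates before crosslinking. Neural stem cells (NSC) were ES-derived progenitors grown with 10 ng/ml each of FGF2 and EGF, and fibroblasts (MEF) came from E16.5 embryos. Each group has 2 samples by its labels. For each cell type 1 list was analysed, given with the sample labelled replicate 2, and whether it pools both replicates is not stated. The sheared genomic DNA that served as a control was not analysed here. 1 of the labels of the MEF samples names NSC chromatin, and the list is called MEF here from its title and cell type. For genotypes and strains, the sources used here give the names of the lines alone. The lists hold 441855 (ESC), 387312 (EpiSC), 555868 (NSC) and 431911 (MEF) sites, their read depth is unknown, and with 1 list per cell type no difference between cell types could be tested. Marker genes of the cell types were not checked, since that needs genes placed on mm9.

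KRAB zinc finger proteins form one of the largest families of transcription repressors in mammals. Each protein joins an array of C2H2 zinc fingers, which read DNA, to a KRAB domain, which recruits KAP1 (Trim28) and through it enzymes that deposit H3K9 trimethylation, and many members silence transposable elements in embryonic stem cells. The genes arose by repeated tandem duplication and stand in clusters of near copies. Pramel genes code for proteins of leucine-rich repeats related to the tumour antigen PRAME, also multiplied by tandem duplication, and are known from germ cells and early embryos.

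Runs of zinc finger and Pramel genes on chromosomes 13 and 4 were taken from the RefSeq gene table of assembly GRCm38.p6. That build is not the one of the sites, so names and the order of neighbours were used and no site was assigned to a gene. The runs given here are the longest of their kind on each chromosome. Their ends were not set against the bounds of the regions. The longest run of zinc finger genes on chromosome 13, from Zfp640 to Zfp273, held 26 genes named Zfp or Rsl among 31 protein-coding genes, and includes Rsl1, a repressor of sex-biased liver genes. On chromosome 4 a run of 23 Pramel and Oog genes among 27 protein-coding genes, from Pramel1 to Pramel13, is followed by a run of 17 zinc finger genes among 18, from Zfp990 to Zfp933. Zinc finger genes with other names, many of them of the Gm series, are not counted in these runs.

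How alike the copies are can be read from their promoters (300 bases, from 250 before to 50 after the start of the gene, RefSeq, GRCm38.p6). A stretch of 36 bases or more was shared with the promoter of another gene, on either strand and leaving out promoters that overlap in the genome, by 12 of the 23 promoters found for the chromosome 13 run (52.2%), 10 of 13 of the chromosome 4 zinc finger run (76.9%) and 12 of 22 of the Pramel run (54.5%). Among the other genes with a promoter in the table the share was 9.49% of 1264 on chromosome 13 and 9.2% of 1597 on chromosome 4. Shared stretches covered at least 50% of the promoter in 1 of 23, 9 of 13 and 6 of 22 genes of the runs, and in 5.46% and 5.39% of the other genes. A shared stretch may also be a dispersed repeat. Short reads from such copies can be placed in more than 1 spot, and the sources used here do not say how the authors treated them. A pair of promoters from the high end of sharing in each run is shown, 5′ to 3′ on the strand of the gene. Shared stretches of 36 bases or more are in capitals. Promoters without such a stretch, present in every run, are not shown.
Rsl1: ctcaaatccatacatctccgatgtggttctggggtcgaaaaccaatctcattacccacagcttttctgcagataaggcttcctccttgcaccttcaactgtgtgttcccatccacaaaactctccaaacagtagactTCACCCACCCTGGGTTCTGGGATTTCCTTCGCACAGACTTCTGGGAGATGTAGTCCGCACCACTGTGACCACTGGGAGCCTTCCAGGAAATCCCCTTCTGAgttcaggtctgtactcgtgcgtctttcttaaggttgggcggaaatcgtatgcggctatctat
Zfp429: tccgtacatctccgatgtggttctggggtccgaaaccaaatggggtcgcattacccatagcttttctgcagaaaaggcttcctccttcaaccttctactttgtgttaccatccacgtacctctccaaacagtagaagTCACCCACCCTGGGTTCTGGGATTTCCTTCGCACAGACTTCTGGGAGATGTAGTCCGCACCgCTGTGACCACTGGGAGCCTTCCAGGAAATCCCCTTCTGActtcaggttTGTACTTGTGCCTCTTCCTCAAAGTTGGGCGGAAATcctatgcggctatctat
Zfp600: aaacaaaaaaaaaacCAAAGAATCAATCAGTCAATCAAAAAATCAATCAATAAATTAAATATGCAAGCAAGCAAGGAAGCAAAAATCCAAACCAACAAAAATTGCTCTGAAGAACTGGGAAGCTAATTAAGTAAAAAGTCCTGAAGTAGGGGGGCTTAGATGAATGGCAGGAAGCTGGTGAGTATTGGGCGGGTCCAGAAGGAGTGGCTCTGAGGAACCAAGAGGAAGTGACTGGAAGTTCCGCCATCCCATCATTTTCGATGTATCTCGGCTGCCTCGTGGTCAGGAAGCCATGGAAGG
Rex2: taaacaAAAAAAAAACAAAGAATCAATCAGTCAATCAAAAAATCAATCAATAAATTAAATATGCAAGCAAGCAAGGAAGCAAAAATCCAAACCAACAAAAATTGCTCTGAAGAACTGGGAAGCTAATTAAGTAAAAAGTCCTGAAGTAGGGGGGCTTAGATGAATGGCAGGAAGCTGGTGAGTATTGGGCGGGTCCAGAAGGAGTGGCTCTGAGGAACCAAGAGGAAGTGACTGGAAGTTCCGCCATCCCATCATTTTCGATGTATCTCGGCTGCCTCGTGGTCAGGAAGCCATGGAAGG
Pramel14: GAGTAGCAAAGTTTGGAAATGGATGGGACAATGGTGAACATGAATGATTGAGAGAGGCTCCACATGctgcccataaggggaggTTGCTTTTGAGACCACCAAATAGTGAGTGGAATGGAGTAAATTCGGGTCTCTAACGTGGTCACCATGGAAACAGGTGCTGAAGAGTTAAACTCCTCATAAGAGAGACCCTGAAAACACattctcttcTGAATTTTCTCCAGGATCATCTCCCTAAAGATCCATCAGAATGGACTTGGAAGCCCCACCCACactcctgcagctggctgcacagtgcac
Pramel30: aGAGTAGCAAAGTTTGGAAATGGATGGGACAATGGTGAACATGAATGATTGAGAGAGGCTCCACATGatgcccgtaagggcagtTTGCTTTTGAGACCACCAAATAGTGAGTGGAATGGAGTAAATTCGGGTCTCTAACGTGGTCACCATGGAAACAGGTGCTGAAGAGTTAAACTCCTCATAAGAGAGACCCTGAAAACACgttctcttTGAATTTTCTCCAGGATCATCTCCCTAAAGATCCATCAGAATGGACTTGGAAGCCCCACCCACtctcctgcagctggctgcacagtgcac
The capitals count stretches shared with any other gene and not within the pair alone. They cover 101 bases of Rsl1 and 136 of Zfp429, each of which shared stretches with 2 other genes. They cover 285 bases of Zfp600 and 294 of Rex2, each of which shared stretches with 6 other genes. Pramel14 and Pramel30 shared 247 bases with each other and with no further gene. The sequences of the sites themselves are not printed, since no genome of mm9 was used here.

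The first comparison set the density of sites in each region against the rest of the same chromosome (113.8 Mb on chromosome 13 and 151.1 Mb on chromosome 4, ending where the last site was listed). All 4 lists were thinner in the cluster regions, and ESC sites least so. On chromosome 13, ESC had 145 sites per Mb in the region and 165 on the rest, a ratio of 0.878 (95% exact binomial interval 0.822 to 0.938). The ratio was 0.647 (0.597 to 0.700) in EpiSC, with 97.5 and 151 sites per Mb. It was 0.459 (0.425 to 0.494) in NSC, with 110.0 and 240 sites per Mb, and 0.470 (0.431 to 0.512) in MEF, with 84.2 and 179. On chromosome 4 the ratios were 0.772 (0.713 to 0.834) in ESC, 0.450 (0.405 to 0.498) in EpiSC, 0.392 (0.353 to 0.435) in NSC and 0.426 (0.381 to 0.474) in MEF. The relative density of ESC was thus 1.36 times that of EpiSC on chromosome 13 and 1.72 times on chromosome 4, and 1.81 to 1.97 times that of the somatic lists over both regions. These intervals cover the counting of sites alone, and neighbouring sites are not independent. Since the regions were picked for their ESC sites, this order restates the choice and is no support for calling the clusters open in ESC. With the bounds as given, ESC had fewer sites per Mb there than on the rest of its chromosome. That direction turned on chromosome 13 with the 50% of sites of the highest score in each list (ratio 1.04) and on chromosome 4 with bounds moved outwards by 500 kb (1.002). It also turned in part of the windows with few NSC and MEF sites. With at most 5 such sites the ESC ratio was 2.30 on chromosome 13, but 0.278 on chromosome 4, where the direction stayed. With at most 2 it was 6.79 on chromosome 13 and 1.67 on chromosome 4.

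**Figure D1:**
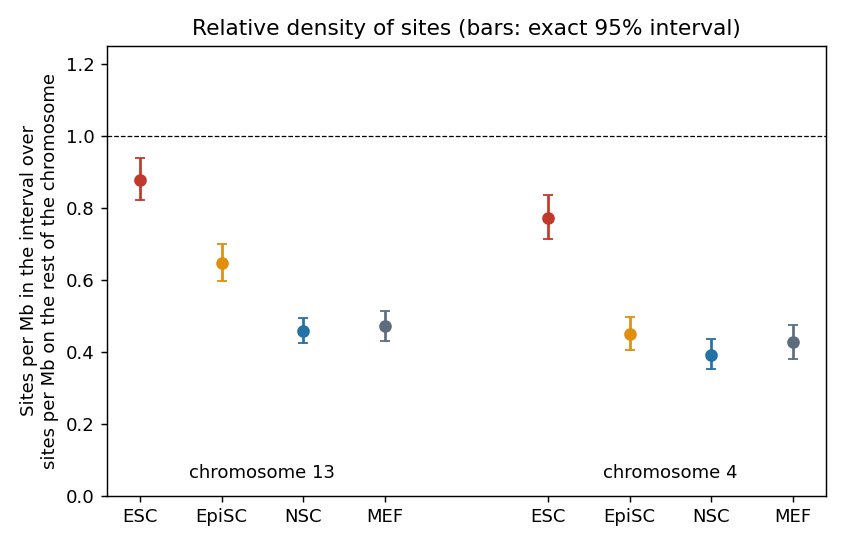
Sites per Mb in each cluster region over sites per Mb on the rest of the chromosome (vertical axis, ratio), for the 4 lists on chromosomes 13 and 4; points are ratios, bars are exact 95% intervals and the dashed line marks equal density. All points lie below 1, ESC highest at 0.878 and 0.772.

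By bases the order was the same for ESC. ESC sites covered 6.49% of the chromosome 13 region and 7.53% of the rest of that chromosome, whereas NSC sites covered 4.81% and 10.3%. On chromosome 4, ESC sites covered 7.04% of the region and 10.1% of the rest, and NSC sites 3.35% and 9.31%.

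Neither region was uniform. On chromosome 13 most members of every list lay in a block from 63000001 to 64500000, with 506 ESC, 410 EpiSC, 478 NSC and 336 MEF sites, and in the last 1.0 Mb, with 178, 120, 144 and 120. In that block 33.6% of ESC sites (95% interval 29.5 to 37.9) lay in no other list. The blocks are stretches of 500-kb bins joined after their values had been seen.

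Elsewhere in the region the lists differed more. From 64500001 to 65500000 there were 92 ESC, 59 EpiSC, 51 NSC and 50 MEF sites, and 66.3% of the ESC sites (55.7 to 75.8) lay in no other list. From 65500001 to 67000000 there were 55 ESC sites, 3 EpiSC, 2 NSC and 5 MEF sites in 1.5 Mb, and 54 of the 55 ESC sites (98.2%, 90.3 to 99.95) overlapped no other list. Before the first of the filled blocks, from 62000001 to 62500000, there were 48 ESC sites against 2, 5 and 8, with 44 in ESC alone (91.7%, 80.0 to 97.7). Where the other lists had so few sites, a high share in ESC alone follows from the counts and is a description. The region had also been picked for ESC sites without EpiSC sites. The first 500 kb of the region were almost empty in every list, with 4 ESC, 2 EpiSC, 2 NSC and 6 MEF sites. The densest window of 100 kb, from 63300001 to 63400000, was the same for ESC (55 sites), EpiSC (36) and MEF (37), while NSC peaked at 63600001 to 63700000 with 49.

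**Figure D2:**
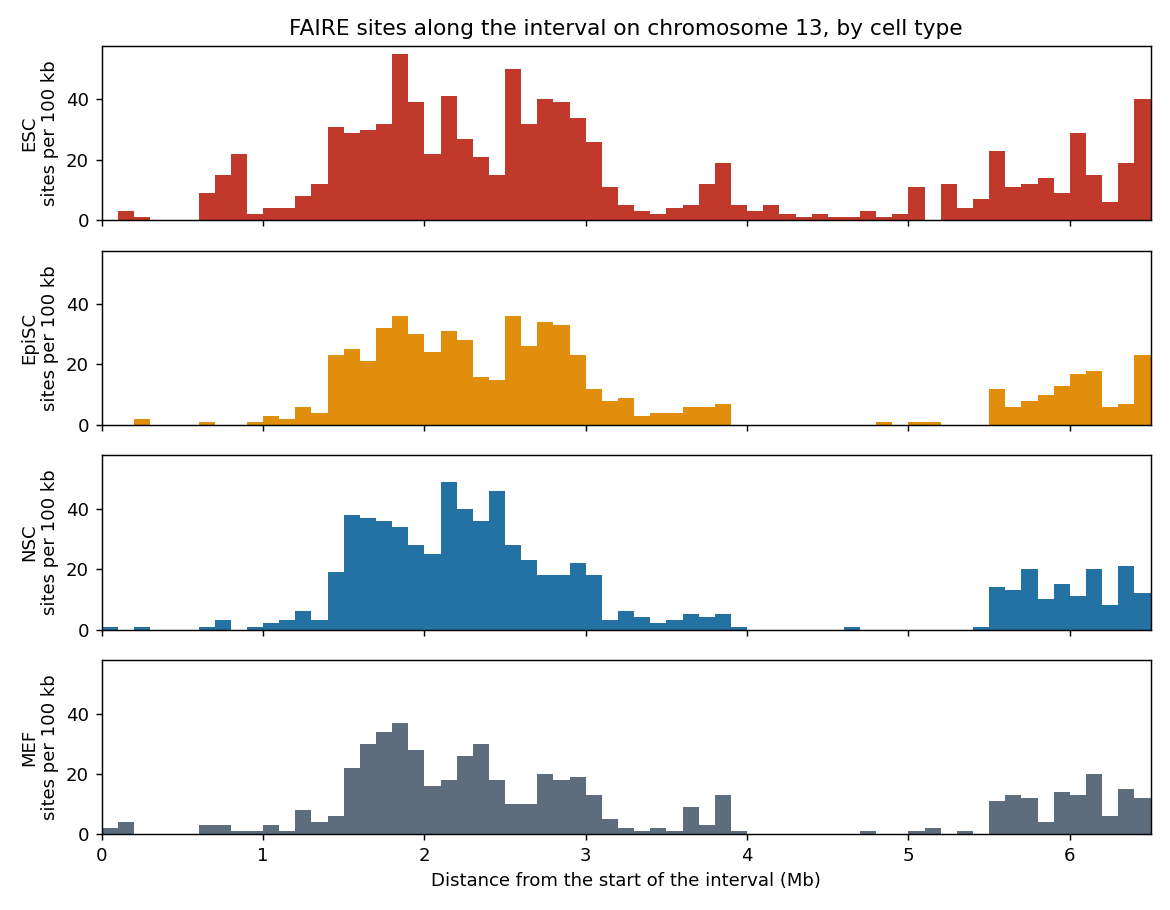
Number of sites in each window of 100 kb (vertical axis) against distance from the start of the chromosome 13 region in Mb (horizontal axis), 1 panel per list and 1 scale for all. All lists are filled in the middle block of 1.5 Mb; ESC alone has bars through most of the stretch before the last filled one, where 55 ESC sites face 3 EpiSC, 2 NSC and 5 MEF sites.

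The chromosome 4 region repeated this pattern in part. From 143500001 to 144000000, 35 ESC sites faced 1 EpiSC, 3 NSC and 9 MEF sites, and 30 of the 35 lay in ESC alone (85.7%, 69.7 to 95.2). Here too, a high share in ESC alone follows from the few sites of the other lists. From 145000001 to 146500000, 113 ESC sites faced 11 EpiSC sites, but NSC had 71 and MEF 32; 84.1% of the ESC sites there (76.0 to 90.3) overlapped no other list. Between them, from 144500001 to 145000000, all lists were dense, with 222 ESC, 169 EpiSC, 126 NSC and 129 MEF sites, and 36.5% of ESC sites lay in no other list. The densest ESC window, from 144800001 to 144900000, held 68 ESC sites beside 19 EpiSC, 6 NSC and 25 MEF sites. The densest window of EpiSC and of NSC was 144600001 to 144700000, with 52 and 54 sites, and that of MEF was 144500001 to 144600000 with 40.

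**Figure D3:**
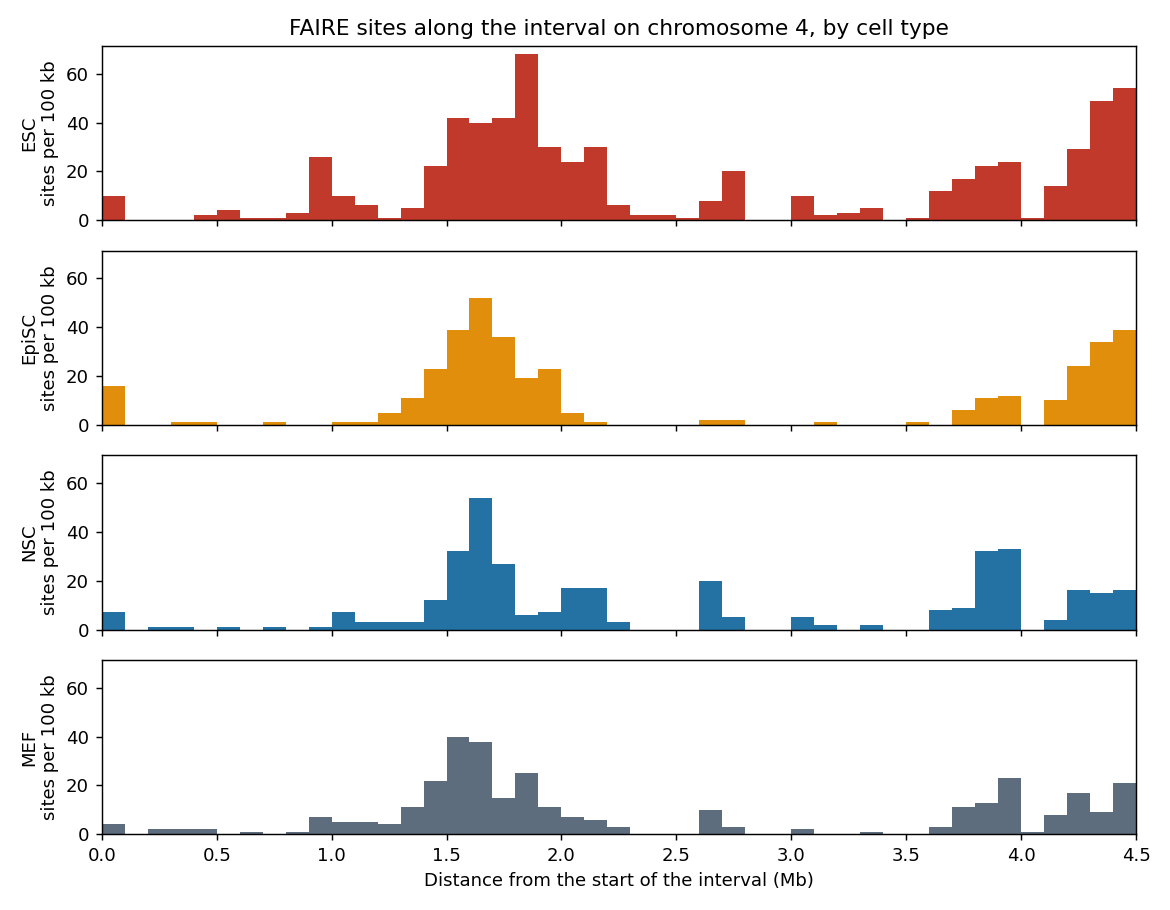
Number of sites in each window of 100 kb (vertical axis) against distance from the start of the chromosome 4 region in Mb (horizontal axis), 1 panel per list and 1 scale for all. The tallest ESC bar has 68 sites where EpiSC has 19, and the 1.5 Mb after the middle peak hold 113 ESC and 11 EpiSC sites.

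The bounds of the regions cut through this landscape at different places. On chromosome 13 the bins of 500 kb just outside and just inside the start held 4 and 4 ESC, 1 and 2 EpiSC, 23 and 2 NSC, and 11 and 6 MEF sites, and those just inside and just outside the end 109 and 9 ESC, 71 and 5 EpiSC, 72 and 4 NSC, and 66 and 3 MEF sites. On chromosome 4 the bin outside the start was dense (199 ESC, 158 EpiSC, 82 NSC and 85 MEF sites) and the bin inside it sparse (12, 18, 9 and 10). At the other end the bins inside and outside held 147 and 175 ESC, 107 and 158 EpiSC, 51 and 110 NSC, and 56 and 48 MEF sites.

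Windows with ESC sites and without EpiSC sites had chosen these regions, and their number is given as a description. Of the 65 windows of 100 kb in the chromosome 13 region, 6 lacked EpiSC sites and had at least 5 ESC sites (9.23%), and of the 45 in the chromosome 4 region, 5 did (11.1%), against 0.283% of the 24731 autosomal windows. The rest of chromosome 13 had 0 such windows of 1138 and the rest of chromosome 4 had 1 of 1512. On chromosome 13 the windows with the most ESC sites among them started at 62300001 (22 ESC, 0 NSC and 1 MEF sites), 62200001 (15, 3 and 3) and 66700001 (12, 0 and 0). On chromosome 4 they started at 143900001 (26 ESC, 1 NSC and 7 MEF sites), 146600001 (12, 8 and 3) and 146000001 (10, 5 and 2). The reverse, at least 5 EpiSC sites without ESC sites, occurred in 0 windows of either region, against 1.83% of autosomal windows.

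The same windows can be counted against the somatic lists, although ESC sites, which served the choice, enter these counts too. Windows without NSC sites that had at least 5 ESC sites numbered 4 of 65 on chromosome 13 (6.15%) and 0 of 45 on chromosome 4, against 0.315% of autosomal windows. Without MEF sites they numbered 3 of 65 (4.62%) and 0 of 45, against 0.17%. With at most 5 NSC and MEF sites together they numbered 7 of 65 (10.8%) and 1 of 45 (2.22%), against 0.655%. In the opposite direction, windows with at least 5 NSC sites and without ESC sites made up 5.13% of autosomal windows, and those with at least 5 MEF sites 5.87%; both regions had 0. The longest stretch of neighbouring windows with at least 5 ESC sites each ran over 21 windows on chromosome 13, from 62700001 to 64800000, and held 599 ESC, 472 EpiSC, 533 NSC and 374 MEF sites. On chromosome 4 it ran over 10 windows, from 144300001 to 145300000, with 309, 209, 178 and 178 sites.

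Gaps in the other lists were measured as well. On chromosome 13 the longest gap between neighbouring EpiSC sites in the region, from 65395440 to 66387745, spanned 0.992 Mb, and no gap on the rest of the chromosome was as long (the longest was 0.677 Mb). It held 25 ESC, 2 NSC and 3 MEF sites. Since the regions were picked for windows with ESC sites and no EpiSC site, a long EpiSC gap with ESC sites restates the choice. The longest NSC gap, of 0.887 Mb from 66106063 to 66993030, held 40 ESC sites, and the longest MEF gap, of 0.846 Mb from 65437065 to 66282953, held 21; each was longer than any gap of its list on the rest of chromosome 13 (0.670 and 0.658 Mb). The longest ESC gap in the region, 0.390 Mb, was exceeded by 3 gaps elsewhere on the chromosome. On chromosome 4 longer gaps existed elsewhere for every list: the longest EpiSC gap of the region, 0.533 Mb from 145131475 to 145664663, held 30 ESC and 16 NSC sites and was exceeded by 6 gaps on the rest of the chromosome.

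Sharing between lists was compared next. ESC members overlapped other lists less often than ESC sites elsewhere on these chromosomes, and members of the somatic lists overlapped others more often. The regions were picked for ESC sites without EpiSC sites, so the ESC shares restate the choice in part and are a description. On chromosome 13, 459 of 942 ESC sites (48.7%, 95% interval 45.5 to 52.0) lay in no other list, against 41.4% (40.7 to 42.1) on the rest of the chromosome and 40% of the whole ESC list. On chromosome 4 it was 345 of 649 (53.2%, 49.2 to 57.1) against 36.4% (35.9 to 37.0). For EpiSC the shares were 27.1% (23.7 to 30.8) against 32.9% on chromosome 13 and 30.2% (25.6 to 35.2) against 30.6% on chromosome 4, beside 30.7% of the whole list. NSC sites lay in no other list in 42.1% (38.5 to 45.8) against 49.8%, and 35.7% (30.8 to 40.8) against 42.6%, beside 47.8% of the whole list. For MEF the shares were 35.1% (31.1 to 39.3) against 42.7%, and 34.2% (29.2 to 39.6) against 43.1%, beside 43.6% of the whole list.

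**Figure D4:**
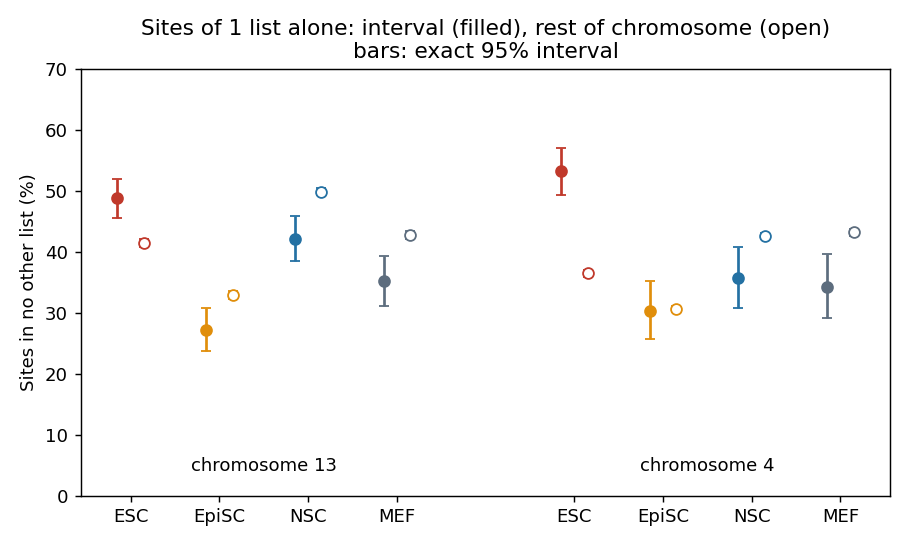
Percent of sites that overlap no other list (vertical axis) in each list, in the cluster region (filled) and on the rest of the chromosome (open); bars are exact 95% intervals, at times smaller than the point. ESC shares are higher in the region (48.7% and 53.2%), NSC and MEF shares lower. The choice of the regions bears on the ESC shares.

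The list each cell type overlapped differed between the regions. In the chromosome 4 region 32.2% of ESC sites (28.6 to 35.95) overlapped an EpiSC site, against 47.3% on the rest of the chromosome, and 22.7% overlapped NSC, against 32.9%. In the chromosome 13 region the overlap of ESC sites with EpiSC was 35.6% (32.5 to 38.7), and 37.2% elsewhere, within the interval, while that with NSC was 26.2% (23.4 to 29.2) against 32.5%. Seen from the other lists, overlap with ESC was higher in the regions. It was 35.1% (31.6 to 38.7) of NSC sites against 21.6% on chromosome 13 and 38.1% (33.1 to 43.3) against 28.5% on chromosome 4. For MEF sites it was 39.9% (35.7 to 44.1) against 22.7%, and 40.5% (35.2 to 46.0) against 25.8%, and for EpiSC sites 53.2% (49.2 to 57.1) against 39.9%, and 52.0% (46.8 to 57.1) against 46.4%. Overlap between lists moves with the density of the second list, which was relatively higher for ESC here. Its part in these shares was not tested. The choice of the regions also bears on the overlap of ESC and EpiSC sites.

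Merging the 4 lists gave 1703 merged sites in the chromosome 13 region and 1054 in the chromosome 4 region. Merged sites of ESC alone made up 27.0% (24.9 to 29.1) and 32.7% (29.9 to 35.7), against 14.5% and 15.0% on the rest of the chromosomes. Because the regions were picked for ESC sites without EpiSC sites, this difference restates the choice in part. Merged sites of NSC alone were fewer in the regions, at 17.7% against 25.4% and 12.5% against 19.6%. Merged sites shared by NSC and MEF alone made up 3.46% against 7.21%, and 3.70% against 5.69%. Those present in all 4 lists numbered 100 (5.87%, 4.80 to 7.10) on chromosome 13, against 3.56%, and 47 (4.46%, 3.30 to 5.89) on chromosome 4, against 4.61%.

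Sites of ESC alone followed each other in long runs. The longest run of neighbouring ESC sites without overlap in any list had 37 sites on chromosome 13, from 66339652 to 67000122, a stretch with 3 EpiSC, 1 NSC and 4 MEF sites of their own, and the longest on the rest of that chromosome had 17. On chromosome 4 the longest run had 23 sites, from 143072876 to 143968102, against 15 on the rest. Runs of 10 or more such sites numbered 4 in the chromosome 13 region and 16 on the rest of it, and 7 in the chromosome 4 region and 15 on the rest. The longest EpiSC runs of this kind in the regions had 6 and 7 sites, and runs as long or longer numbered 79 and 71 on the rest of these chromosomes. A larger share of ESC members without EpiSC overlap lay far from EpiSC sites than elsewhere. On chromosome 13, 15.2% of 607 lay 20 kb or more from the nearest EpiSC site, against 1.07% on the rest. On chromosome 4 it was 25.9% of 440 against 1.10%. Most were nearer, with median distances of 2109 and 2942 bp, against 1529 and 1039 bp on the rest. ESC members without NSC overlap lay as far from NSC sites in 15.7% (2.52% on the rest) and 7.97% (4.08%). For MEF it was 13.1% (1.45%) and 10.3% (2.55%). The choice of the regions bears on these shares and on the runs of ESC alone.

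To set ESC and EpiSC beside each other where somatic sites were few, windows of 100 kb with at most 5 NSC and MEF sites together were examined, a limit chosen after the data had been seen. The chromosome 13 region had 30 such windows, with 114 ESC sites (3.8 per window) and 23 EpiSC sites (0.767 per window). The rest of chromosome 13 had 75, with 1.65 ESC and 1.73 EpiSC sites per window. On chromosome 4 the 19 such windows of the region held 28 ESC and 5 EpiSC sites, 1.47 and 0.263 per window, whereas the 109 on the rest held 5.29 and 4.16. The ESC to EpiSC ratio was 4.96 and 5.6 in the regions and 0.954 and 1.27 elsewhere. Since the regions were picked for ESC sites without EpiSC sites, this contrast restates the choice and is a description. At this limit, sparse windows of the chromosome 4 region were not rich in ESC sites for their kind. With a limit of 2 somatic sites the numbers per window were 3.86 ESC and 0.273 EpiSC sites against 0.569 and 0.672 on chromosome 13, and 1.44 and 0.25 against 0.863 and 0.638 on chromosome 4.

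The form of ESC sites in these sparse windows differed from that of other ESC sites. Their median width was 178 bp (quartiles 107 and 323) on chromosome 13, against 291 bp in sparse windows of the rest of the chromosome and 343 bp in the other windows of the region. On chromosome 4 it was 149 bp (77.8 and 199), against 372 and 365 bp. Sites under 100 bp made up 22.8% (15.5 to 31.6) of the 114 on chromosome 13 and 32.1% (15.9 to 52.4) of the 28 on chromosome 4, against 4.84% and 1.04% in sparse windows elsewhere and 1.38% of the whole ESC list. In the block from 65500001 to 67000000 the median width of the 55 ESC sites was 115 bp, and 24 of them (43.6%) were under 100 bp wide. Sites in no other list made up 91.2% (84.5 to 95.7) and 92.9% (76.5 to 99.1) of ESC sites in the sparse windows of the regions, against 62.1% and 64.0% in those elsewhere. These windows held few sites of the other lists, and the regions were picked for ESC sites without EpiSC sites. The contrast in sites of ESC alone thus restates the choice in part and is a description. Over the whole regions, 4.46% of ESC sites on chromosome 13 (3.23 to 5.98) and 5.24% on chromosome 4 (3.66 to 7.24) were under 100 bp wide, against 1.37% and 1.20%. Among EpiSC sites these shares were 2.21% and 2.12%, against 1.69% and 1.51% (1.55% of the whole list). Among NSC sites they were 3.22% and 4.87%, against 1.86% and 1.76% (1.8% of the whole list), and among MEF sites 3.11% and 1.20%, against 1.92% and 1.81% (1.8% of the whole list). In sparse windows of the regions, EpiSC sites had median widths of 296 bp (23 sites) on chromosome 13 and 195 bp (5) on chromosome 4. In sparse windows elsewhere the EpiSC medians were 302.5 and 333 bp. Of the 23 and 5 EpiSC sites, 2 and 1 were under 100 bp wide. The limit of 100 bp was chosen after the data had been seen.

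**Figure D5:**
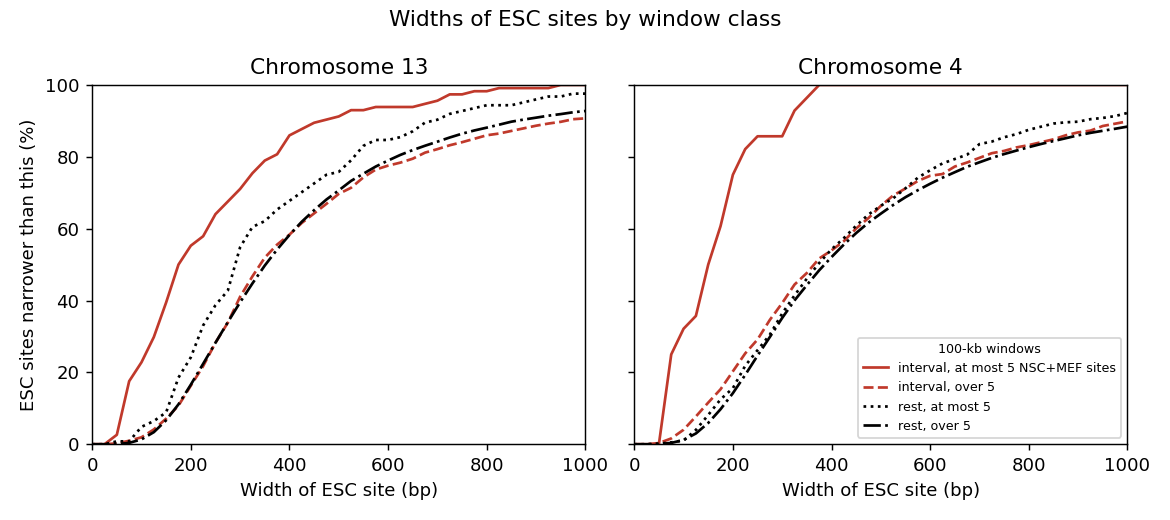
Percent of ESC sites narrower than a given width (vertical axis) against width in bp (horizontal axis), for windows of 100 kb with at most 5 or over 5 NSC and MEF sites together, in the cluster region and on the rest of the chromosome. ESC sites in sparse windows of the regions (solid) are narrowest, with medians of 178 and 149 bp; the other 3 curves lie to the right.

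Scores are the authors' own values without a stated unit and were read within each list. ESC sites of the chromosome 13 region had a median score of 4.03 (quartiles 2.23 and 7.11), against 3.39 on the rest of the chromosome, and 9.34% of them (7.56 to 11.4) were among the 5% of highest score of the ESC list, against 4.59%. On chromosome 4 the median was 3.70 against 3.47, and the share of the highest scores, 4.62% (3.14 to 6.53), did not exceed the 5.25% on the rest. NSC sites scored lower in both regions, with medians of 3.52 against 3.98 and 3.40 against 4.02. As elsewhere on these chromosomes, ESC sites found in all other lists were wider and scored higher than those of ESC alone: 744 bp and 9.07 against 280 bp and 3.32 on chromosome 13, and 579 bp and 6.12 against 283 bp and 3.26 on chromosome 4.

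The single sites of highest ESC score were of 2 kinds. Some were narrow and found in ESC alone. These were 66781861 to 66781939 on chromosome 13 (79 bp, score 34.6, the third highest of the ESC list), 65516061 to 65516201 on the same chromosome (141 bp, 32.8, rank 5) and 145593774 to 145593906 on chromosome 4 (133 bp, 27.8, rank 19). The others were mostly wider and open in all 4 lists. On chromosome 13 they were 67829562 to 67830314 (753 bp, 24.9), 67161674 to 67162355 (682 bp, 17.9) and 62116902 to 62117671 (770 bp, 16.8). On chromosome 4 they were 143002235 to 143003132 (898 bp, 19.7), 147327531 to 147328303 (773 bp, 14.8) and 144876462 to 144877040 (579 bp, 14.3), followed by 146780837 to 146781233 (397 bp, 14.1), shared with EpiSC alone. The shared site at 62116902 was in the block of 48 ESC and 2 EpiSC sites, and was 1 of the 4 ESC sites there that overlapped another list. The widest ESC sites were 62975747 to 62978346 on chromosome 13 (2600 bp, shared with EpiSC) and 147454595 to 147458982 on chromosome 4 (4388 bp, shared with EpiSC and NSC).

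The 3 members of highest score in each other list were mostly shared on chromosome 13. In EpiSC these were 67273396 to 67274012 (score 14.2, in all lists), 63557933 to 63558092 (12.6, shared with ESC) and 63195914 to 63196532 (12.3, shared with ESC and NSC). In MEF they were 63346443 to 63347557 (15.4, shared with ESC and NSC), 63146621 to 63148854 (12.3, in all lists) and 63241786 to 63243266 (11.9, shared with NSC). In NSC 63915682 to 63917790 (25.2) lay in all lists, but 63041111 to 63041458 (25.6) and the narrow 67611414 to 67611468 (55 bp, 20.004) lay in NSC alone.

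On chromosome 4 the ESC site at 143002235 was matched by the best EpiSC member, 143002505 to 143003348 (21.5), and by the third NSC member, 143002456 to 143003157 (18.1). The next EpiSC members, 145048789 to 145048839 (51 bp, 17.8) and 146593522 to 146593716 (195 bp, 15.5), lay in EpiSC alone. The best NSC members were 146782187 to 146782558 (23.5) and 146882507 to 146882993 (20.4), both shared with MEF alone. In MEF, 144345571 to 144346403 (17.8) and its neighbour 144344791 to 144345420 (14.9) lay in MEF alone, and 146781987 to 146782649 (16.2) was shared with ESC and NSC. None of these single sites has a replicate check.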

How the data were processed

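Each deposited list (ESC, EpiSC, NSC, MEF) names sites by position, with a score and a value for display. The authors computed the score; its unit, the aligner, thresholds, treatment of reads with several placements, use of the genomic control and any pooling of replicates were not given in the sources used here. Files are named after the caller qeseq. Per the submitters' processing notes, positions are on mm9 and CASAVA 1.8 was used; per the labels' protocols, DNA was PCR-amplified before a Genome Analyzer read it. Depth is unknown.

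Starts were taken as 0-based and are printed 1-based. Sites of different lists overlapped when 1 bp or more was common to both. Exact (Clopper-Pearson) 95% intervals accompany ratios and shares and cover counting error alone; scores were compared within a list. The regions, and the lists of genes and limits used, were chosen with earlier results of these data known. Sites and windows were named by rule: per region the 5 ESC sites and 3 sites of each other list with the highest score, the widest ESC site, the highest ESC site in all lists, the 3 windows with most ESC and no EpiSC sites, the densest window per list and the longest stretch of ESC windows. Gene names, order and promoters came from RefSeq tables of GRCm38.p6. The software was bedtools 2.31.1, which gave identical overlap counts, and Python 3.11.15 (scipy 1.17.1, numpy 2.4.6, pandas 2.3.3, matplotlib 3.10.9), tested on simulated data.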

Additional observations from a re-analysis of the deposited data

Results flagged for a closer look

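Median scores moved in opposite directions between lists when each region was set against the rest of its chromosome; the difference between lists was not tested, and scores of different lists have no stated common scale. On chromosome 13 the median score in the region was higher than on the rest by 0.637 for ESC sites, by 0.214 for EpiSC sites and by 0.073 for MEF sites, whereas for NSC the difference was -0.469. On chromosome 4 it was higher by 0.228 in ESC, and the differences in EpiSC, NSC and MEF were -0.056, -0.619 and -0.368.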

How the results depend on the processing

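Of the values recomputed, 61 stayed within their interval (within 1.5 times for counts of windows), 44 moved beyond it and 5 crossed equal density. The ESC to other ratio of relative densities stayed above 1 in every setting, from 1.31 to 16.7 on chromosome 13 and from 1.48 to 4.40 on chromosome 4. Settings by somatic sites compare ESC with EpiSC alone, and the value of 16.7 rests on 6 EpiSC sites in the region. All settings rest on regions picked for their ESC sites, so a ratio above 1 restates the choice and is no support. Merging sites under 200 bp apart left each density and share within its interval. Moving bounds outwards and splitting windows by somatic sites were choices made after seeing the data. The relative density with the 50% of highest scores was 1.04 for ESC, 0.706 for EpiSC, 0.388 for NSC on chromosome 13 and 0.31 for NSC, 0.357 for MEF on chromosome 4. Relative density with lists of equal length (387312 sites each) was 0.42 for NSC on chromosome 13. Relative density with bounds moved inwards by 500 kb was 0.387 for EpiSC on chromosome 4. Relative density with all other autosomes as reference was 0.816 for ESC on chromosome 13 and 0.534 for EpiSC on chromosome 4. Relative density with bounds moved outwards by 500 kb was 0.765 for ESC, 0.561 for EpiSC, 0.409 for NSC, 0.415 for MEF on chromosome 13 and 1.002 for ESC, 0.679 for EpiSC, 0.487 for NSC, 0.487 for MEF on chromosome 4. Relative density in windows with at most 5 NSC and MEF sites was 2.3 for ESC, 0.442 for EpiSC on chromosome 13 and 0.278 for ESC, 0.0633 for EpiSC on chromosome 4. Relative density in windows with at most 2 was 6.79 for ESC, 0.406 for EpiSC on chromosome 13 and 1.67 for ESC, 0.392 for EpiSC on chromosome 4. The share in no other list with the 50% of highest scores was 61% for ESC, 34.8% for EpiSC, 49% for NSC, 49.6% for MEF on chromosome 13 and 63.5% for ESC, 40.2% for EpiSC, 45% for NSC, 43.8% for MEF on chromosome 4. The share in no other list with lists of equal length (387312 sites each) was 33.3% for EpiSC, 40.8% for MEF on chromosome 13 and 36.3% for EpiSC on chromosome 4. The share in no other list in windows with at most 5 NSC and MEF sites was 91.2% for ESC, 65.2% for EpiSC on chromosome 13 and 92.9% for ESC, 100% for EpiSC on chromosome 4. The share in no other list when 50% of the shorter site had to be covered was 52.2% for ESC, 48.1% for NSC, 41.5% for MEF on chromosome 13 and 58.5% for ESC, 41.1% for NSC on chromosome 4. ESC values above 1 in this list are those that turned round. With at least 10 ESC sites, windows without EpiSC sites numbered 3 in each region; on chromosome 4 they numbered 3 with windows of 200 kb and 1 in windows with at most 5 NSC and MEF sites. Fewer sites or other bounds make part of these changes by construction; otherwise the cause was not tested. No paired analysis was possible because only 1 list stands for a cell type, and no replicate could be left out for the same reason. The planned sequence content of sites and their annotation with genes were not run. Depth is unknown, so a stretch without sites and a stretch with too few reads cannot be told apart.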

Other observations

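Among bins of 500 kb with 5 or more ESC sites, the number of ESC sites exceeded that of EpiSC sites in 12 of 12 bins of the chromosome 13 region and 8 of 9 of the chromosome 4 region, against 103 of 215 and 119 of 277 on the rest of these chromosomes; the choice of the regions bears on these counts. The excess was at least 5-fold in 4 bins of each region (counting an absent EpiSC site as 1), against 1 and 0 bins elsewhere. Outside the sparse windows, the regions were closer to the rest of their chromosomes in median ESC width. Windows with over 5 NSC and MEF sites had ESC sites of 343 and 365 bp median width, against 351 and 385 bp. The share of these ESC sites under 100 bp was 1.93% (1.11 to 3.12) against 1.35% on chromosome 13. On chromosome 4 it was still higher in the region, at 4.03% (2.62 to 5.89) against 1.20%. Within the chromosome 13 region, NSC and MEF each had 1 run of 10 or more neighbouring sites in no other list. Each run had 15 sites, starting at 64703119 in NSC and 64718962 in MEF. The chromosome 4 region had 1 such run in NSC, of 11 sites, and none in MEF. Such runs numbered 85 in NSC and 49 in MEF on the rest of chromosome 13, and 75 and 152 on the rest of chromosome 4.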
